A study of Mus musculus with 10 samples.

Results

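The genes described here are the cytosolic ribosomal protein genes of mouse brain tumours and neurospheres, read from 1-colour exon arrays. They are the transcript clusters (the array's gene-level units) whose only gene symbol starts with Rpl or Rps and a digit, or is Rplp0, Rplp1 or Rplp2, leaving out the S6 kinases, Rps27l and pseudogenes marked -ps. The rule found 20 genes among 23238 transcript clusters, each with 1 single-symbol transcript cluster. Of these, 15 encode structural proteins of the ribosome: 8 of the large subunit (Rpl4, Rpl8, Rpl10a, Rpl22, Rpl23, Rpl31, Rpl35a and Rpl37), the stalk protein Rplp0, and 6 of the small subunit (Rps3, Rps9, Rps15, Rps18, Rps20 and Rps24). The other 5 were kept apart as related genes. Rpl3l and Rpl39l are paralogs of Rpl3 and Rpl39, and Rps4l is listed by RefSeq as a transcribed pseudogene. Rpl7l1 resembles Rpl7, and Rps19bp1 encodes a protein that binds Rps19. A further 33 transcript clusters name a ribosomal protein gene together with other symbols and were not counted as members. They hold 27 symbols that match the rule, 24 of them not among the members, so some members also occur there. Most ribosomal protein genes, among them Rplp1, Rplp2, Rpl5, Rpl11, Rps6 and Rps19, have no value of their own here.

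All 10 samples came from mice carrying floxed alleles of both p53 and Rb1 in homozygous form (the labels write p53/Rb Flox-Hom), on a mixed background of C57, FVB and mainly 129 Ola. The groups were 3 primitive neuroectodermal tumours (PNET) and 1 oligo-astrocytoma (replicate 44), which arose in mice whose brain ventricles had received an adenovirus with Cre recombinase (AdCre); 3 oligo-astrocytomas (replicates 4, 5 and 6) grown from grafted neurospheres that had received AdCre in culture; 2 cultures of AdCre-treated neurospheres of the subventricular zone at passage 3; and 1 neurosphere culture with a control adenovirus, AdGFP, which has no Cre. The labels name no cell-type promoter for Cre. They do not say whether samples of a group came from separate animals or cultures, so each p-value reflects only how far these samples scatter, which may be technical, and the number of arrays limits the precision.

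The cytosolic ribosome is built from ribosomal RNA and a large family of proteins, nearly all made in equal number, which are assembled on the RNA in the nucleolus and exported as separate subunits. The messengers of most of these proteins begin with a run of pyrimidines at the cap, the terminal oligopyrimidine tract, through which mTOR signalling sets how strongly they are translated. In neural stem cells and brain tumours, ribosome production follows growth, Myc raises transcription of these genes, and some free ribosomal proteins bind Mdm2, the ubiquitin ligase of p53.

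The deposited values are log2 expression. The arrays had similar medians, from 5.87 to 6.06, but not the same spread: the upper quartile was 7.22 to 7.49 in the tumours and at least 7.90 in the spheres, and the 95th percentile 9.04 to 9.30 in the tumours and 9.68 to 9.75 in the spheres. Bright genes thus read higher on the whole in the sphere arrays, and each comparison is given on the deposited values and after quantile normalization, which gives all arrays the same upper quartile of 7.57. The median of the 15 structural genes was 7.14, 6.32 and 6.34 in PNET, 6.81 in the oligo-astrocytoma that AdCre had induced, 6.73, 6.79 and 7.31 in grafted oligo-astrocytomas, 7.02 and 7.60 in AdCre spheres, and 6.80 in the AdGFP sphere. These medians overlap between tumours and spheres. Counted gene by gene on the deposited values, 16 and 15 of the 20 members lay above their own mean over 10 arrays in the AdCre spheres. This count was 11 in the AdGFP sphere and 2 to 10 in the tumours. After quantile normalization it was 14 and 13 in the AdCre spheres, 11 in the AdGFP sphere and 2 to 11 in the tumours. The AdGFP sphere then had the same count as grafted replicate 6. The share over all transcript clusters was not counted. Rb1, a gene targeted by Cre, had 7.48, 7.48 and 7.64 in PNET, 6.97 in the single AdCre-induced tumour, 6.36, 7.24 and 6.63 in grafted oligo-astrocytomas, 6.65 and 6.34 in AdCre spheres and 8.49 in the AdGFP sphere. The AdGFP sphere was the highest, and the values average over the whole gene, so they do not read the deleted exons separately.

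**Figure D1:**
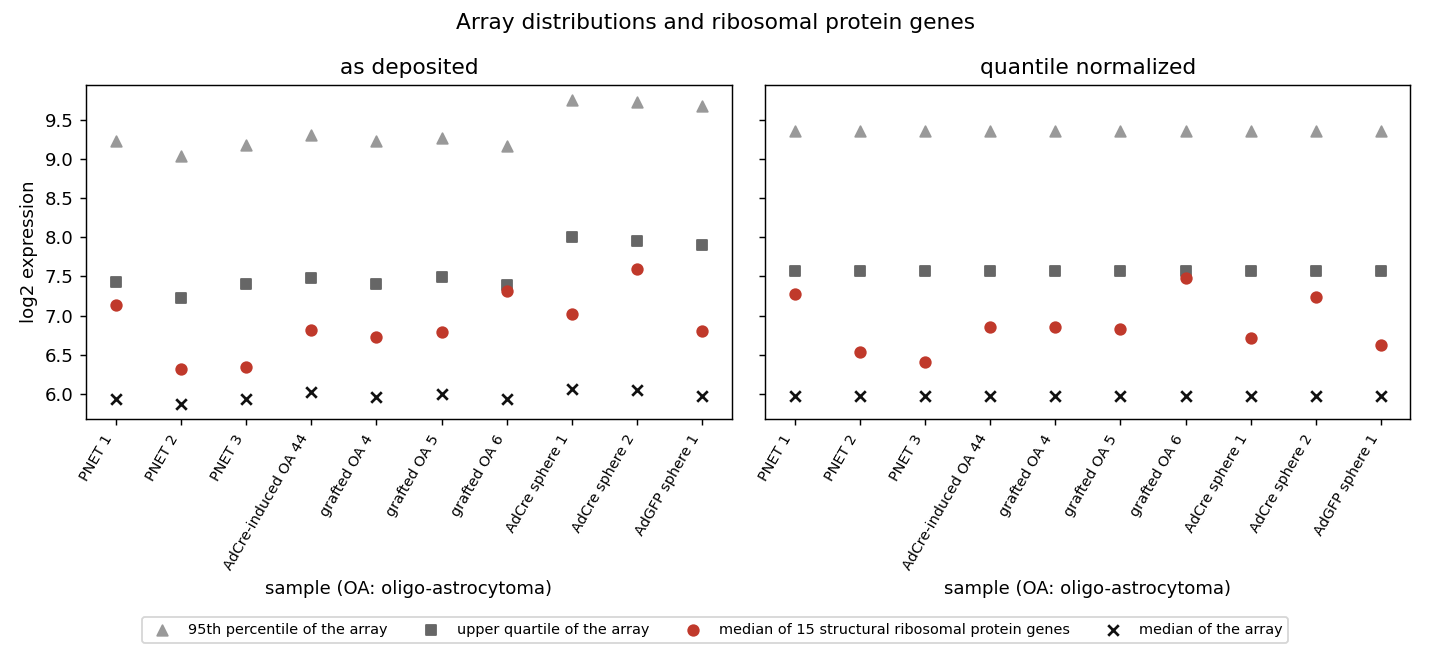
Log2 values of the array median, upper quartile, 95th percentile and the median of 15 structural ribosomal protein genes in each of 10 samples, as deposited (left) and after quantile normalization (right). As deposited, the upper quartile is 7.22 to 7.49 in tumours and at least 7.90 in spheres, while the medians of the ribosomal protein genes overlap between tumours and spheres.

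The members covered most of the range of the arrays. Because probes differ in how they bind, a value is compared only between samples, never between genes. Rpl8, which lies beside the peptidyl transferase centre, had a mean of 10.67 over 10 arrays, Rps9, at the messenger's entry, 10.36, and Rps3, also at the entry, 10.29. Rpl39l, a paralog best known from testis, had a mean of 1.89, Rpl31, a protein near the exit tunnel, 3.23, and Rpl3l, a paralog best known from muscle, 3.62. These 3 dim genes lay in the lower quartile of all transcript clusters, where the arrays resolve little. In all, 15 of the 20 members had a mean of at least 5. The SD over 10 arrays was largest for Rpl37 (0.89) and Rps20 (0.89), then Rpl4 (0.84), Rps4l (0.80) and Rps19bp1 (0.76). It was smallest for Rpl3l (0.20) and Rpl39l (0.25).

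**Figure D2:**
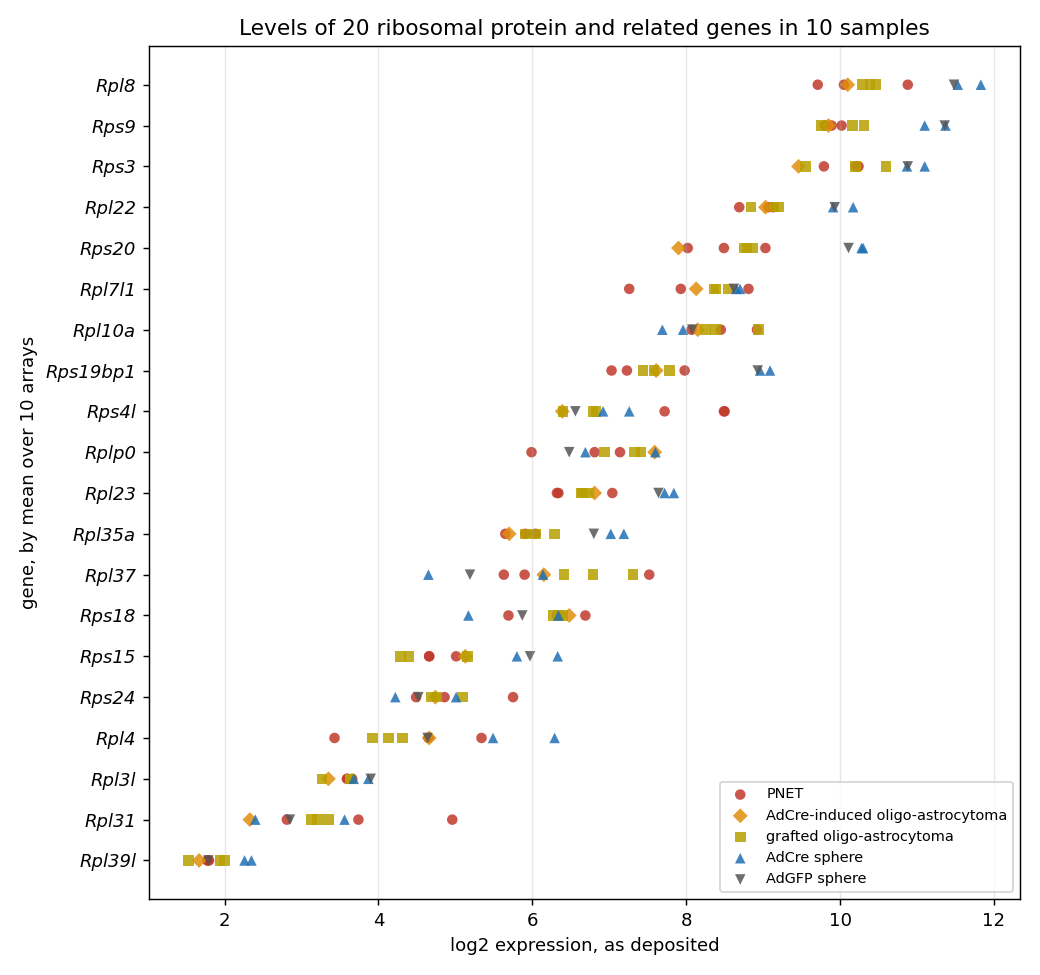
Deposited log2 expression of each of 20 genes (vertical axis, ordered by mean for display) in each of 10 samples, with 1 marker per sample coloured by group. For Rpl8, Rps9, Rps3, Rps20, Rps15, Rpl22, Rps19bp1, Rpl23 and Rpl35a all 3 sphere samples lie to the right of all 7 tumours, whereas PNET stands to the right for Rps4l.

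The start regions of these genes show what the members share outside the arrays. RefSeq promoter windows of the GRCm38.p6 build, from 250 bases before a gene's start to 50 after it, were available for 17 members, 13 of them structural. A run of at least 8 pyrimidines on the sense strand, touching the 10 bases on either side of the start, was present in 6 of the 13 structural genes (Rpl4, Rpl31, Rpl35a, Rps9, Rps18 and Rps24) and in 15.8% of 27025 genes with a window. CCGGAAG, the core of sites for Ets-family factors such as GABP, was present on either strand in 3 of the 13 (Rpl31, Rpl37 and Rps18) and in 9.93% of genes. AAGATGGC, bound by Yy1, was present on either strand in Rpl22 and Rpl35a and in 3.19% of genes, CACGTG, the palindromic E-box bound by Myc and Max, in Rpl23 and in 8.09%, and TATAAA, the TATA box, on either strand in Rpl22 and Rplp0 and in 15.7%. Genes were counted if any of their windows held the motif. For Rpl22 both matches lie in the same window, and its other window holds none of these motifs. A match describes letters in a window, not a bound site.

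The printed windows run from 80 bases before the start to base 20 from it, so the start is base 81, and capitals mark matches to these motifs. The first set shows genes that were lower in both tumour types than in AdCre spheres as deposited.
Rps9, chr7:3703961-3704060, plus strand: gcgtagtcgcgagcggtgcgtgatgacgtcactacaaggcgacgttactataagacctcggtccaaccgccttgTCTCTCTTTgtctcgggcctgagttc
Rpl35a, chr16:33056402-33056501, plus strand: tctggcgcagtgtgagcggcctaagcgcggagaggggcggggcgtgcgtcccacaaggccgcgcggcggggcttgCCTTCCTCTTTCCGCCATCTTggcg
Rpl23, chr11:97782420-97782519, minus strand: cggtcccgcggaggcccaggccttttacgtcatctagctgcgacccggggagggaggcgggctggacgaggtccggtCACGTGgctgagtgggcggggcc
Rps15, chr10:80292351-80292450, plus strand: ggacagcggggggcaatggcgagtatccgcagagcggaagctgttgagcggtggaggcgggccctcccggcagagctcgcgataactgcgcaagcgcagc
Rps9 and Rpl35a hold a pyrimidine run at the start, and in Rpl35a it is followed directly by the reverse complement of AAGATGGC. Rpl23 holds CACGTG across the start, and the printed bases of Rps15 hold none of the 5 motifs. The second set shows structural genes that passed no test in any comparison.
Rps18, chr17:33955646-33955745, minus strand: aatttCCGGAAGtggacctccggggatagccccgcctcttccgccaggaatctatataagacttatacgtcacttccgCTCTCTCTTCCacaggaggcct
Rps24, chr14:24490598-24490697, plus strand: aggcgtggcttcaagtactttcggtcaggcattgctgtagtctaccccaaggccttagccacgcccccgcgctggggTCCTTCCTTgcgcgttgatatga
Both also hold a pyrimidine run, and Rps18 holds CCGGAAG further upstream, so the run occurs both in genes that differed between tumours and spheres and in genes that did not pass. Rpl35a and Rps24 have several windows in RefSeq, and the one with the run at its start is shown.

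Between PNET and grafted oligo-astrocytomas, the pair of tumour types, 1 of the 20 members passed the test. Rps4l was 2.96-fold higher in PNET. Its values were 8.50, 7.72 and 8.49 in PNET, against 6.79, 6.40 and 6.83 in grafted oligo-astrocytomas. All PNET samples were above all grafted ones, and the AdCre-induced oligo-astrocytoma (6.39) and the spheres (7.26 and 6.92 with AdCre, 6.56 with AdGFP) were below all PNET too. The log2 difference was 1.56 ± 0.26 (SE, n = 3 and 3; limma, adjusted p = 0.0068) as deposited and 1.70 ± 0.24 (adjusted p = 0.00307) after quantile normalization, where 6.36% of all transcript clusters were called higher. Ribosomal protein genes have many near-identical copies in the genome, and how far this transcript cluster also reads Rps4x or its copies was not tested. Across all transcript clusters 4.88% were called higher in PNET, 6.24% lower and 11.1% in either direction, against 1, 0 and 1 of the 20 members. No structural gene passed. Of the 20 log2 differences 14 lay below 0, with a median of -0.10, against -0.02 over all transcript clusters. The groups did not overlap for 1 member, Rps4l, and for 29.1% of all transcript clusters.

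Among structural genes, the lowest unadjusted p between the tumour types was that of Rplp0, the base of the stalk that recruits elongation factors and a frequent reference gene in expression work. It had 7.14, 5.99 and 6.81 in PNET and 6.94, 7.33 and 7.41 in grafted oligo-astrocytomas. The groups overlap, and the difference of -0.58 ± 0.35 did not pass (limma, adjusted p = 0.361). Rpl7l1 had 8.81, 7.93 and 7.26 in PNET and 8.36, 8.55 and 8.39 in grafted oligo-astrocytomas, a difference of -0.43 ± 0.34 (limma, adjusted p = 0.522). The spread came from PNET, whose replicate 1 was higher and whose replicates 2 and 3 were lower than every grafted sample. PNET replicate 1 also had the highest value of its group for Rpl4, Rpl8, Rpl10a, Rpl23, Rpl37, Rplp0 and Rps19bp1. Differences of the remaining structural genes lay between -0.49 (Rpl37) and 0.61 (Rpl31). Tumour type and way of induction cannot be told apart in this pair, since all PNET came from injection and all grafted tumours from spheres.

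PNET stood lower than the AdCre spheres in 8 of the 20 members and higher in 1. Among all transcript clusters 25.9% were called lower and 11.2% higher, and among those with a mean of at least 5, 35.6% were called lower. Structural genes made up 7 of the 8: Rpl8, Rpl22, Rpl23 and Rpl35a of the large subunit and Rps9, Rps15 and Rps20 of the small subunit. That is 46.7% of the 15 structural genes. Their median log2 difference was -1.07, against -0.21 over all transcript clusters and -0.61 over the 3948 with a mean of at least 8. PNET and the AdCre spheres did not overlap for 12 members that were lower and 2 that were higher, against 61.5% of all transcript clusters in either direction.

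Rps20, a protein of the small subunit's head, showed the largest difference. It had 8.49, 8.02 and 9.03 in PNET, against 10.28 and 10.30 in AdCre spheres, a log2 difference of -1.78 ± 0.28 (SE, n = 3 and 2; limma, adjusted p = 0.002), or 3.43-fold lower. The AdGFP sphere had 10.11, the grafted oligo-astrocytomas 8.79, 8.75 and 8.87, and the AdCre-induced oligo-astrocytoma 7.90. All 3 spheres were above all 7 tumours. Its rank, which needs no scale, points the same way: 89.4%, 86.5% and 94.1% of transcript clusters of the same array lay below it in PNET, against 97.5% and 97.7% in AdCre spheres. After quantile normalization, which is computed from these ranks and so is not separate evidence, the difference was -1.22 ± 0.26 (limma, adjusted p = 0.00998).

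Rps9 had 9.89, 10.02 and 9.80 in PNET and 11.10 and 11.37 in AdCre spheres, a difference of -1.33 ± 0.22 (limma, adjusted p = 0.00246). The PNET values were close together and all below both spheres. Rps15, a protein of the small subunit's head that contacts transfer RNA, had 4.66, 4.66 and 5.01 in PNET and 6.33 and 5.80 in AdCre spheres, a difference of -1.29 ± 0.30 (limma, adjusted p = 0.0115). Its rank lay at 28.7% to 33.9% of the array in PNET and at 52.8% and 46.9% in AdCre spheres, so a gene near the middle of the array was also lower. Quantile normalization left Rps15 at -1.23 and brought Rps9 to -0.88, both past the threshold.

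In the large subunit, Rpl8 had 10.88, 9.71 and 10.05 in PNET and 11.53 and 11.83 in AdCre spheres, a difference of -1.47 ± 0.32 (limma, adjusted p = 0.00873). PNET replicate 1 came closest to the spheres. Rpl35a, mutated in some families with Diamond-Blackfan anaemia, had 5.91, 6.04 and 5.65 in PNET and 7.02 and 7.19 in AdCre spheres, a difference of -1.24 ± 0.21 (limma, adjusted p = 0.00258). Rpl23, which in human cells binds MDM2, had 7.04, 6.32 and 6.34 in PNET and 7.84 and 7.72 in AdCre spheres, a difference of -1.21 ± 0.25 (limma, adjusted p = 0.00604). Rpl22, which has an expressed paralog in Rpl22l1, had 9.07, 8.69 and 9.13 in PNET and 9.91 and 10.17 in AdCre spheres, a difference of -1.07 ± 0.22 (limma, adjusted p = 0.00631). In each of these 4 genes the groups did not overlap. After quantile normalization Rpl8 (-1.06) and Rpl35a (-0.87) still passed, whereas Rpl22 (-0.49, adjusted p = 0.118) and Rpl23 (-0.67, adjusted p = 0.0784) did not.

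Rps19bp1 is among the related members, and its product is also a regulator of the deacetylase Sirt1. It had 7.98, 7.03 and 7.23 in PNET and 8.96 and 9.09 in AdCre spheres. That is a difference of -1.61 ± 0.29 as deposited (limma, adjusted p = 0.00353) and -0.99 after quantile normalization, past the threshold on both. Rps4l was the member that was higher in PNET, by 1.15 ± 0.29 (limma, adjusted p = 0.0148) as deposited and 1.68 ± 0.27 (adjusted p = 0.00299) after quantile normalization. Rpl10a, a protein of the stalk through which spent transfer RNA leaves, was not lower: it had 8.92, 8.45 and 8.07 in PNET and 7.69 and 7.96 in AdCre spheres. All PNET values were above both spheres, with a difference of 0.66 ± 0.30 (limma, adjusted p = 0.127) as deposited and 1.27 ± 0.32 (adjusted p = 0.0189) after quantile normalization. Rps3 (-0.91 ± 0.31, adjusted p = 0.0505) and Rpl4, whose loop lines the exit tunnel (-1.42 ± 0.50, adjusted p = 0.0561), missed the threshold in the limma test as deposited. Rpl37, a small zinc-binding protein, differed by 0.96 ± 0.62 (limma, adjusted p = 0.265), with values of 7.52, 5.63 and 5.90 in PNET and 6.14 and 4.65 in AdCre spheres that overlap.

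After quantile normalization 6 members were called lower in PNET than in AdCre spheres and 2 higher, against 14.5% and 14% of all transcript clusters, and the median over the 20 members was -0.46, against -0.07 over all transcript clusters. Without AdCre sphere replicate 1, Rps15 did not pass (adjusted p = 0.0917), and without AdCre sphere replicate 2, neither Rpl8 (adjusted p = 0.0587) nor Rps4l (0.98, adjusted p = 0.0933) did. Rps20 and Rps9 passed under every one of the 18 alternative settings run. Some of these settings could not change the result. They are leaving out the single AdCre-induced or AdGFP sample, and averaging a gene's transcript clusters, since each member has 1.

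**Figure D3:**
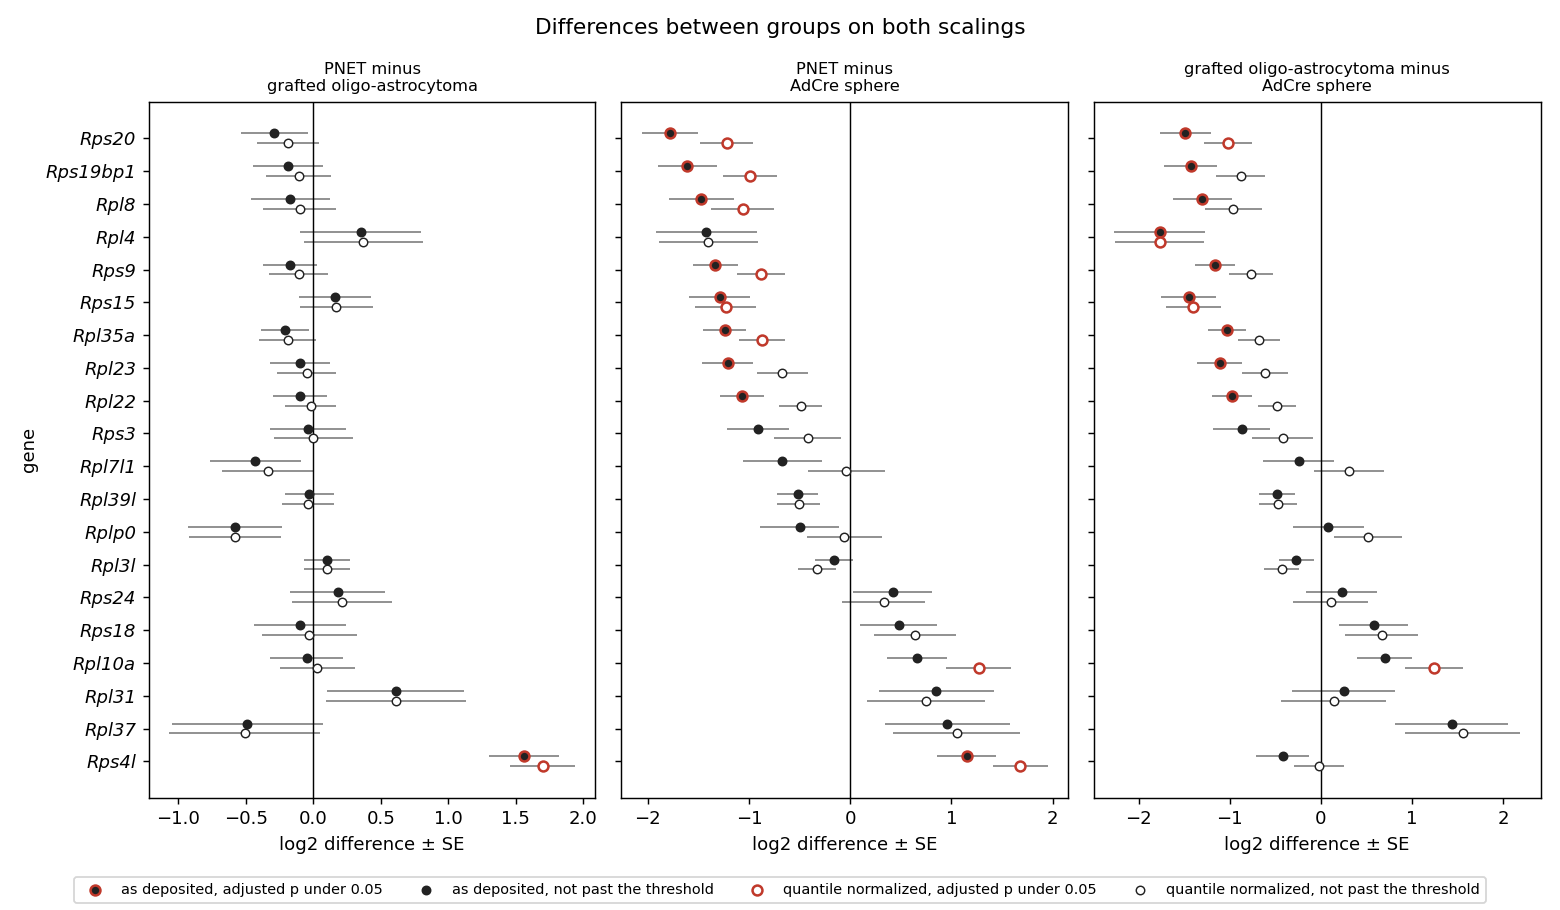
Log2 differences ± SE of 20 genes (rows) in 3 comparisons (panels), as deposited (filled) and after quantile normalization (open), with red outlines where the adjusted p is under 0.05. Against AdCre spheres the points of Rps20, Rps15, Rpl8 and Rps9 lie left of 0 on both scalings, and between the tumour types only Rps4l has a red outline.

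Grafted oligo-astrocytomas grew from AdCre-treated spheres, so this comparison sets a tumour against the kind of culture it came from. It shares the 2 AdCre sphere samples with the PNET comparison, so the results of both are not independent. In grafted oligo-astrocytomas 9 of the 20 members were lower than in AdCre spheres and 0 higher. The unadjusted p was under 0.05 for 13 of the 20 members and for 9909 of the 23238 transcript clusters. Among all transcript clusters 21.6% were called lower and 9.51% higher, and among those with a mean of at least 5, 29.5% were called lower. The 9 hold 8 structural genes, 53.3% of the 15: Rpl4, Rpl8, Rpl22, Rpl23, Rpl35a, Rps9, Rps15 and Rps20. The median log2 difference of the structural genes was -0.97, against -0.23 over all transcript clusters and -0.50 over those with a mean of at least 8. The groups did not overlap for 14 members that were lower and 2 that were higher, against 59.8% of all transcript clusters.

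Rps20 had 8.79, 8.75 and 8.87 in grafted oligo-astrocytomas, against 10.28 and 10.30 in AdCre spheres. Both groups were tight, and the difference was -1.49 ± 0.28 (SE, n = 3 and 2; limma, adjusted p = 0.00599) as deposited and -1.02 ± 0.26 (adjusted p = 0.0258) after quantile normalization. Rps15 had 4.40, 4.29 and 5.16 in grafted oligo-astrocytomas and 6.33 and 5.80 in AdCre spheres, a difference of -1.45 ± 0.30 (limma, adjusted p = 0.00919) and, after quantile normalization, -1.40 ± 0.30 (adjusted p = 0.0153). Grafted replicate 6 was the nearest to the spheres. Rpl4 had 3.92, 4.13 and 4.31 in grafted oligo-astrocytomas and 5.49 and 6.29 in AdCre spheres. The difference of -1.77 ± 0.50 (limma, adjusted p = 0.0293) stayed at -1.77 after quantile normalization (adjusted p = 0.0367). The grafted values ranked at 18.4%, 21.3% and 24% of their arrays, in the lower quartile, where the arrays resolve little. The AdGFP sphere, however, had 4.64 for Rpl4, close to the grafted tumours, and the call was lost when both kinds of sphere formed 1 group (-1.36, adjusted p = 0.0642).

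The other 6 calls passed as deposited and after median centring of the arrays, but not after quantile normalization. Rps19bp1 had 7.78, 7.44 and 7.58 in grafted oligo-astrocytomas and 8.96 and 9.09 in AdCre spheres (-1.43 ± 0.29, limma adjusted p = 0.0081), and the difference was -0.88 (adjusted p = 0.0515) after quantile normalization. Rps9 had 9.76, 10.16 and 10.31 in grafted oligo-astrocytomas and 11.10 and 11.37 in AdCre spheres (-1.16 ± 0.22, limma adjusted p = 0.00618), with -0.77 (adjusted p = 0.0531) after quantile normalization. Rpl8 had 10.39, 10.29 and 10.47 in grafted oligo-astrocytomas and 11.53 and 11.83 in AdCre spheres (-1.30 ± 0.32, limma adjusted p = 0.0181), with -0.96 (adjusted p = 0.0581) after quantile normalization. In these 3 genes all grafted tumours lay below both spheres on either scale. Rpl23 (-1.11 ± 0.25), Rpl35a (-1.03 ± 0.21) and Rpl22 (-0.97 ± 0.22) also passed as deposited, and after quantile normalization they differed by -0.61, -0.68 and -0.48, with adjusted p of 0.114, 0.0686 and 0.143.

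Some structural genes pointed the other way. Rpl10a had 8.25, 8.38 and 8.94 in grafted oligo-astrocytomas and 7.69 and 7.96 in AdCre spheres, a difference of 0.70 ± 0.30 (limma, adjusted p = 0.115) as deposited and 1.24 ± 0.32 (adjusted p = 0.0269) after quantile normalization. Rpl37 had 6.41, 6.79 and 7.31 in grafted oligo-astrocytomas and 6.14 and 4.65 in AdCre spheres, a difference of 1.44 ± 0.62 that did not pass on either scale (limma, adjusted p = 0.113 and 0.109). Both genes were higher in all 3 grafted tumours than in both spheres. Rps18 (6.34, 6.39 and 6.27 in grafted oligo-astrocytomas; 5.17 and 6.34 in AdCre spheres) and Rps24 (4.76, 5.09 and 4.69; 5.01 and 4.22), 2 small-subunit proteins, overlapped between the groups. Rplp0, with 6.94, 7.33 and 7.41 in grafted oligo-astrocytomas and 6.69 and 7.60 in AdCre spheres, also overlapped. After quantile normalization 3 members were called lower (Rpl4, Rps15 and Rps20) and 1 higher (Rpl10a), against 10.8% and 10.7% of all transcript clusters, so on this scale the members' counts are close to the background. On the deposited scale, leaving out AdCre sphere replicate 1 took the count of lower members to 5 (Rpl4, Rpl8, Rpl23 and Rps15 lost) and leaving out AdCre sphere replicate 2 also to 5 (Rpl4, Rpl8, Rpl22 and Rpl35a lost).

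**Figure D4:**
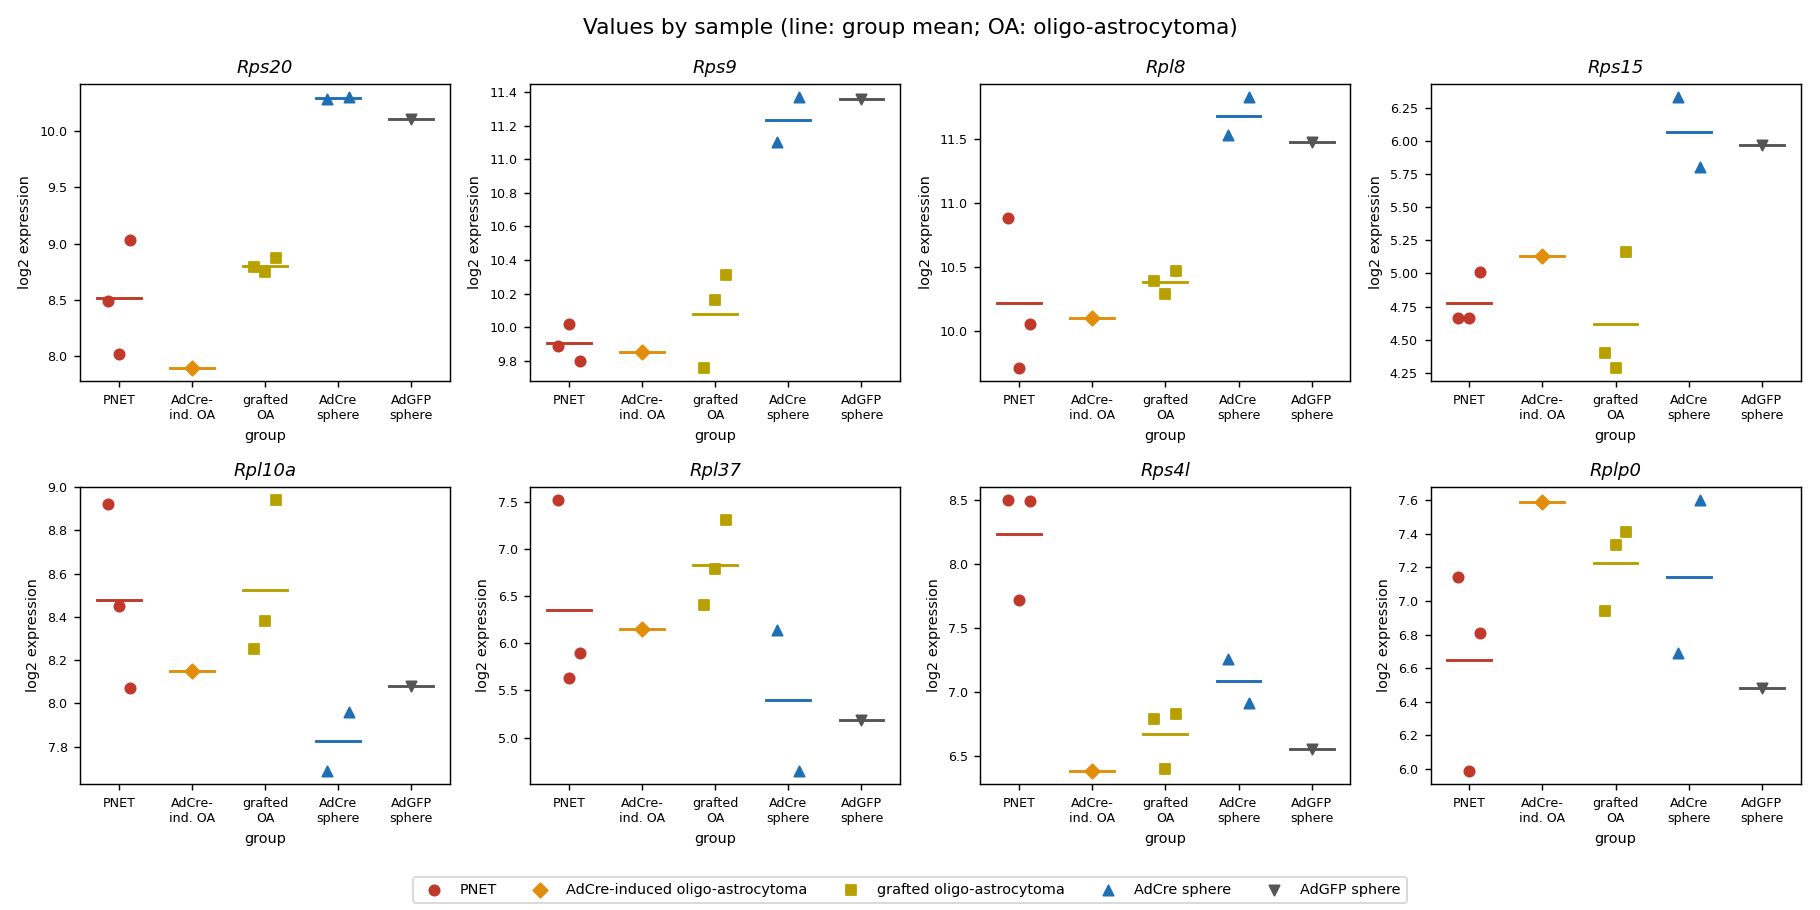
Deposited log2 expression of 8 genes by group, with 1 marker per sample and a line at the group mean. The sphere samples lie above all tumours for Rps20, Rps9, Rpl8 and Rps15, at the low end for Rpl10a, and overlap the tumours for Rplp0, while PNET is highest for Rps4l.

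The samples also differ in their mix of cells. Of 13 microglia and macrophage markers, 6 were higher in PNET and 9 in grafted oligo-astrocytomas than in AdCre spheres, and 0 were lower in either. Their mean log2 value per array was 6.12 to 6.93 in PNET, 8.39 in the single AdCre-induced tumour and 6.70 to 7.74 in grafted oligo-astrocytomas, against 4.93 and 4.91 in AdCre spheres and 4.74 in the AdGFP sphere. Of 10 endothelial markers, 5 were higher in PNET and 8 in grafted oligo-astrocytomas, with means of 5.90 to 6.27 in PNET, 6.51 to 6.75 in grafted oligo-astrocytomas, and 4.91 and 4.96 in AdCre spheres. Of 9 measured neural stem and progenitor markers, 5 were lower in PNET and 6 in grafted oligo-astrocytomas than in AdCre spheres, and their mean was 7.03 to 7.05 in PNET, 7.53 to 7.80 in grafted oligo-astrocytomas, and 9.19 and 8.92 in AdCre spheres. After quantile normalization these counts were 5 in PNET and 3 in grafted oligo-astrocytomas. Neural lineage markers also moved in PNET against AdCre spheres: 6 of 6 measured astrocyte markers and 6 of 9 oligodendrocyte lineage markers were lower, and of 9 mature neuron markers 4 were higher and 1 lower. In grafted oligo-astrocytomas 1 astrocyte marker was higher and 2 lower, 3 oligodendrocyte lineage markers were higher and 1 lower, and 2 mature neuron markers were lower. In spheres 1 to 3 of the 13 microglia markers and 2 of the 10 endothelial markers lay in the array's lower quartile. The part of these cells in the ribosomal protein differences was not tested, and in bulk samples fewer cells of a type and less RNA per cell cannot be told apart.

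AdCre spheres and the AdGFP sphere, the culture pair that differs in Cre, showed 0 calls among the 20 members and 0% among all transcript clusters after adjustment in limma. Without adjustment, 1181 transcript clusters and 0 members had p under 0.05. The median log2 difference was 0.12 over the members and 0.07 over all transcript clusters, and single members lay between -0.25 (Rpl10a) and 1.25 (Rpl4). The smallest unadjusted p was that of Rpl39l, with 2.26 and 2.35 in AdCre spheres and 1.79 in the AdGFP sphere (0.51 ± 0.27, limma adjusted p = 1). Rpl4 had 5.49 and 6.29 in AdCre spheres and 4.64 in the AdGFP sphere (1.25 ± 0.67), and Rps4l 7.26 and 6.92 against 6.56 (0.53 ± 0.38). The groups did not overlap for 12 of the 20 members, 10 higher and 2 lower in AdCre spheres, against 68.2% of all transcript clusters. With 1 AdGFP sample, which is assumed to vary like the others, a p that misses the threshold does not show that these values are alike.

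The AdCre-induced oligo-astrocytoma and the grafted oligo-astrocytomas, tumours of the same named type from different derivations, also had 0 calls among the members, against 0.288% of all transcript clusters called higher and 0.0129% lower. The median over the members was -0.19, against 0.01 over all transcript clusters. Rps20 had 7.90 in the AdCre-induced tumour, against 8.79, 8.75 and 8.87 in grafted ones. The induced tumour lay below every other sample, with a difference of -0.91 ± 0.35 that passed only without adjustment (limma, adjusted p = 0.582). Rps3, which also has a role in DNA repair, had 9.46 in the AdCre-induced tumour and 9.55, 10.20 and 10.60 in grafted ones (-0.65 ± 0.39, limma adjusted p = 0.837), and Rpl35a had 5.70, against 6.29, 5.91 and 6.04 (-0.38 ± 0.26, limma adjusted p = 0.88). The values did not overlap for 13 members, 4 higher and 9 lower in the AdCre-induced tumour, against 52.8% of all transcript clusters. The comparison rests on 1 AdCre-induced tumour, which also had the highest mean of microglia markers.

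The rest of the machinery that makes and uses ribosomes was followed through lists of its genes, whose counts stand against 25.9% lower and 11.2% higher among all transcript clusters in PNET, and 21.6% lower and 9.51% higher in grafted oligo-astrocytomas, each against AdCre spheres. Translation initiation factors were lower in PNET than in AdCre spheres in 11 of 24 measured genes (45.8%) and higher in 0, with Eif3i, a subunit of the factor that binds the small subunit, the furthest down (-1.79 ± 0.36). In grafted oligo-astrocytomas 10 of 24 (41.7%) were lower and 1 higher than in AdCre spheres, with Eif2b2, part of the exchange factor that recharges initiation factor Eif2, at -1.95 ± 0.25. The elongation list holds elongation factors and Eef2k, which is not a factor but the kinase that inhibits elongation factor Eef2. Of its 5 measured genes, 3 were lower in PNET and 2 in grafted oligo-astrocytomas. Eef2k was the furthest down in both (-1.83 ± 0.29 in PNET and -1.70 ± 0.29 in grafted oligo-astrocytomas). Of 45 ribosome biogenesis genes 13 (28.9%) were lower and 2 higher in PNET, near the share over all transcript clusters, and 4 (8.89%) were lower and 3 higher in grafted oligo-astrocytomas. Nhp2, a core protein of the particles that modify ribosomal RNA, was lowest in PNET (-1.79 ± 0.28).

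The counts of these lists changed with the scaling. After quantile normalization the background was 14.5% lower and 14% higher in PNET, and 10.8% lower and 10.7% higher in grafted oligo-astrocytomas. In the elongation list 1 of 5 genes was then lower in each tumour type, the kinase Eef2k, and no elongation factor itself passed. Biogenesis genes were higher in 7 and lower in 2 of 45 in PNET, and higher in 8 and lower in 0 in grafted oligo-astrocytomas, each against AdCre spheres. Initiation factors were then higher in 3 and lower in 4 of 24 in PNET, and higher in 2 and lower in 3 in grafted oligo-astrocytomas. Of 15 measured genes of RNA polymerase III, which makes the smallest ribosomal RNA, 6 were lower in PNET than in AdCre spheres as deposited, and 3 were higher and 0 lower after quantile normalization. Of 8 measured other messengers with a terminal oligopyrimidine tract, Nap1l1, a histone chaperone, was higher in PNET than in AdCre spheres as deposited (1.47 ± 0.29, limma adjusted p = 0.00551) and after quantile normalization (2.01 ± 0.30, adjusted p = 0.00227). Eef1b2, an elongation factor subunit, was lower as deposited (-1.36 ± 0.31) but did not pass after quantile normalization (-0.82 ± 0.31, limma adjusted p = 0.0762). Rpsa, a ribosomal protein of the small subunit whose symbol has no digit, passed in none of the 5 comparisons, with values between 6.55 and 7.08 over 10 samples.

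Between the tumour types, 5 of 45 biogenesis genes were lower in PNET than in grafted oligo-astrocytomas and 0 higher, against 6.24% and 4.88% of all transcript clusters. The 5 are 11.1% of the list, led by Heatr1, which is needed for transcription of ribosomal RNA (-1.11 ± 0.20, limma adjusted p = 0.0106). Heatr1 had 6.88, 6.25 and 6.50 in PNET and 7.54, 7.66 and 7.77 in grafted oligo-astrocytomas, without overlap. Myc, an activator of ribosome genes, had 7.79, 8.71 and 8.13 in PNET and 10.65, 9.95 and 10.28 in grafted oligo-astrocytomas. The difference was -2.09 ± 0.27 (limma, adjusted p = 0.00261). Of the 6 measured genes in the list of Myc and p53 genes, 2 were higher in PNET and 1, Myc, was lower. Mycn, of the same list, had 8.05, 9.24 and 9.46 in PNET. In grafted oligo-astrocytomas Mycn had 5.88, 6.41 and 8.98, so the groups overlap. Against AdCre spheres (9.23 and 9.10), Myc was higher in grafted oligo-astrocytomas both as deposited (1.13 ± 0.31, limma adjusted p = 0.025) and after quantile normalization (1.65 ± 0.34, adjusted p = 0.013). In PNET it was lower than in AdCre spheres as deposited (-0.96 ± 0.31, limma adjusted p = 0.0397) but did not pass after quantile normalization (-0.33 ± 0.34, adjusted p = 0.5). Of 16 measured genes of the S6 kinases and mTOR, 1 was higher in PNET than in grafted oligo-astrocytomas and 0 were lower. It was Rps6ka5, a kinase of histones and Creb (1.59 ± 0.28, limma adjusted p = 0.00939). Against AdCre spheres, 0 of the 16 were higher and 4 (25%) lower in PNET as deposited, near the 25.9% lower over all transcript clusters. After quantile normalization 3 were higher and 1 lower, against 14% and 14.5% of all transcript clusters.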

How the data were processed

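The 10 mouse samples were hybridised to 1-colour Affymetrix exon arrays, of which the series text names 2 versions. The deposited log2 values, 1 per transcript cluster and sample, come from RMA in Partek with genome build mm8, per the submitters' processing notes. How probe sets were combined is not given in the sources used here. In the probe annotation 14939 transcript clusters have a single symbol, 989 have several and 7310 have none.

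Values were used as deposited, with no filter, and again after quantile normalization. The linear models of limma 3.58.1 (R 4.3.3; lmFit, eBayes) took in all 23238 transcript clusters and 10 samples in 5 groups, with 5 residual degrees of freedom. Tests were two-sided, with Benjamini-Hochberg adjustment over all transcript clusters and a threshold of 0.05. They were first tested on simulated data, with known changes. Named members were the 5 largest called rises and falls of each comparison (the 3 smallest p where fewer than 3 passed), the 3 highest and 3 lowest means, the 5 largest SDs and members with a set role. Other members were added to account for all 20. The 16 lists of other genes hold 234 genes, 180 of them measured. Members and lists were chosen with earlier results of these data known. Promoter windows are RefSeq's on GRCm38.p6, which is not the arrays' build.

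Alternatives were quantile normalization, centring on the array median, dim filters, trended robust moderation and other groupings. Others were the mean over the transcript clusters of a gene and fits of the compared groups only. The sample number as a block, and fits without each sample in turn, were also run.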

Additional observations from a re-analysis of the deposited data

How the results depend on the processing

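No called member changed direction under any alternative run. The median over the members between PNET and oligo-astrocytoma, -0.10 against the grafted tumours, was 0.12 when the AdCre-induced oligo-astrocytoma alone took their place. The median over the members stayed below 0 in both comparisons with AdCre spheres. After quantile normalization the count of higher members between PNET and AdCre spheres was 2 and between grafted oligo-astrocytomas and AdCre spheres 1, and the count of lower members in the second was 3. That normalization removes the wider spread of the sphere arrays, and how much of the spread is technical was not tested. The alternatives chosen after seeing the data were the following. With structural genes only, 0 were higher in PNET than in grafted oligo-astrocytomas or AdCre spheres, since Rps4l is left out. With the 33 transcript clusters that name several symbols added, to give 53, there were 2 higher and 3 lower between PNET and grafted oligo-astrocytomas. There were 2 higher and 23 lower between PNET and AdCre spheres, and 2 higher and 21 lower between grafted oligo-astrocytomas and AdCre spheres. Over all transcript clusters, 4.88%, 11.2% and 9.51% were called higher in these 3 comparisons, and 6.24%, 25.9% and 21.6% lower. The counts of 53 were made on the deposited values only, where the sphere arrays have the wider spread, and not after quantile normalization. With members of a mean of at least 5 only, the median between grafted oligo-astrocytomas and AdCre spheres was -0.97.

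Leaving out each sample gave, between PNET and grafted oligo-astrocytomas, 1 to 1 higher and 0 to 0 lower. Between PNET and AdCre spheres it gave 0 to 1 higher (0 without AdCre sphere replicate 2) and 7 to 10 lower. Between grafted oligo-astrocytomas and AdCre spheres it gave 0 to 1 higher (1 without PNET replicate 1) and 5 to 9 lower. It gave 0 to 0 in both directions in the other comparisons. Without an AdCre sphere, the remaining one is assumed to vary like the other groups. Rpl4 between grafted oligo-astrocytomas and AdCre spheres passed neither without grafted replicate 4, 5 or 6 (adjusted p = 0.0726, 0.0679 and 0.0536) nor without either AdCre sphere (0.058 and 0.17), and Rpl8 there did not pass without grafted replicate 5 (0.0509).

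PNET and the AdCre spheres share sample numbers 1 and 2, but the labels give no pairing. Deviations of same-numbered samples from their group means correlated at -0.0329 and -0.0579. With 2 AdCre spheres, the spheres' deviations mirror each other, so these values cannot tell whether same-numbered samples are paired. With the replicate block, 0 members were higher and 3 lower in PNET than in AdCre spheres. That fit used only the PNET and sphere samples and had fewer residual degrees of freedom than the main fit. Its counts therefore cannot be read as an effect of pairing, and the share over all transcript clusters was not counted for it. The fit of the compared groups only was not run for AdCre against AdGFP spheres, for want of residual degrees of freedom. The AdCre-against-AdGFP and AdCre-induced comparisons rest on 1 sample in a group, and the dimmest members are near the arrays' lower limit.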
